A study of Homo sapiens with 4 samples.

Results

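DLD-1, an established human colorectal adenocarcinoma cell line, was compared with and without the demethylating drug 5-aza-2'-deoxycytidine on 2 of the study's 4 arrays, those whose titles name the line. The other 2 arrays held a second colorectal cancer line, HT-29, handled the same way. Treated DLD-1 cells had been plated, left for 24 h and then exposed to 1 µM of the drug for 96 h, and untreated DLD-1 cells were the reference. All cells were kept in RPMI1640 with 10% fetal bovine serum at 37 °C and 5% CO2. Total RNA of treated and untreated cells was hybridised together to each oligonucleotide array, and the Cy3 and Cy5 dyes were exchanged on the second. The labels do not say whether the 2 arrays came from separate cultures, so they were counted as 1 replicate. No p-value is given for any gene, and each mean ± SD is taken over the 2 hybridisations, so it shows the spread between arrays and not between cultures. The study asked which genes that are silent in colorectal cancer cells come up after the drug.

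In its active form 5-aza-2'-deoxycytidine is built into DNA during replication and traps DNA methyltransferases there, so methylation of CG dinucleotides is lost as cells divide. Cancer-testis genes are the textbook example of genes held silent by promoter methylation outside the germ line. In colorectal cancer, other genes with CG-rich promoters, among them inhibitors of Wnt signalling, are known to gain methylation and fall silent.

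Which scanner channel held the treated RNA on the dye-exchanged array is not settled, because the labels give a dye to each channel while the columns of the scanner output name no dye. On array 1 channel 2 was taken as treated, as labelled, and array 2 was read in both possible ways. In the fixed-channel reading channel 2 is treated on both arrays. In the label-order reading channel 1 is treated on array 2, so every log2 ratio of treated over untreated on that array changes sign. A probe counted as raised or lowered when its log2 ratio was at least 1 in size, a 2-fold change, with the same sign on both arrays. That the channel read as treated is the brighter at raised probes thus follows from the rule and does not speak for either reading.

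Each array carried 30336 spots in 48 printed blocks, of which 29640 were not controls. At least 1 channel was above background on both DLD-1 arrays at 21218 probes, which covered 10179 named genes. The share of non-control spots above background ran from 69.2% to 85.8% over the 4 channels, against 0% to 2.08% of the 192 empty spots, 4.17% to 7.29% of the 96 negative control spots and 32.4% to 47.1% of 312 quality-control blanks. Median local background was 329 and 277 intensity units in channels 1 and 2 of array 1 and 93.3 and 542 on array 2. The log2 ratios of channel 2 over channel 1 had an SD of 0.50 on array 1 and 0.54 on array 2. Across the 21218 probes the channel ratios of the 2 arrays were negatively correlated (r = -0.41). Probes share arrays, print blocks and labelling reactions and are not independent replicates.

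Position on the slide moved with that correlation. Block medians ran from -0.58 to 0.59 on array 1 and from -0.43 to 0.42 on array 2, and 36 of the 48 blocks had medians of opposite sign on the 2 arrays (r = -0.80 over blocks). Block accounted for 32.9% of the variance of the log2 ratios on array 1 and for 24.5% on array 2. With every block median set to 0, the correlation between the arrays was -0.20. The label-order reading turns a negative correlation of channel ratios into a positive one of treated over untreated, so the block pattern moves with its counts, and its part in them was not tested beyond the counts given with block medians at 0.

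**Figure D1:**
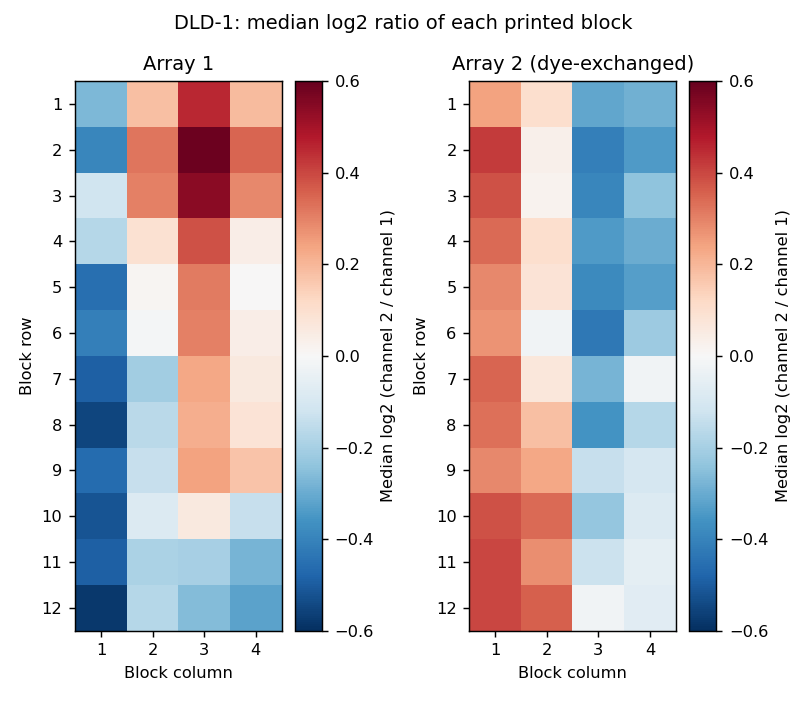
Median log2 ratio of channel 2 over channel 1 in each of the 48 printed blocks, in the layout of the slide, for DLD-1 array 1 (left) and the dye-exchanged array 2 (right). Red blocks favour channel 2 and blue blocks channel 1, and 36 of 48 blocks have the opposite sign on the other array.

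The probes with the largest mean ratios in the fixed-channel reading had the same channel brighter on both arrays. Some of the largest ratios on array 2 alone, such as that of WWP2 (0.10 and 3.70), were near 0 on array 1. In the fixed-channel reading 24 probes were raised (0.113% of those measured) and 2 were lowered (0.00943%). The label-order reading gave 78 raised (0.368%) and 3 lowered (0.0141%). The 24 had larger ratios than the 78. Their median mean log2 ratio was 1.98 and their highest 3.64, against a median of 1.21 and a highest of 1.7 in the label-order set. Over all measured probes, a mean log2 ratio of at least 2 was reached by 12 in the fixed-channel reading and by 0 in the label-order reading, which had 1 at -2.29. A mean of at least 1 was reached by 67 in the fixed-channel reading and by 279 in the label-order reading. With block medians at 0, 19 of the 24 were still raised 2-fold on both arrays, as were 11 of the 78. Counted anew at that setting, 23 probes were raised in the fixed-channel reading and 25 in the label-order reading.

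Over genes, after averaging the probes of each gene, 16 genes (0.157%) were raised and 1 (0.00982%) was lowered in the fixed-channel reading. The label-order reading had 31 genes raised (0.305%) and 2 lowered (0.0196%). The 2-fold line divides a continuous range. CRIP1 (2.97 and 1.02 on the 2 arrays) and a RANBP9 probe (1.01 and 1.73) lay just inside it in the fixed-channel reading, and CLIC3 (1.20 and 0.94), NT5M (1.21 and 0.93) and the gut hormone gene CCK (1.64 and 0.91) lay just outside.

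**Figure D2:**
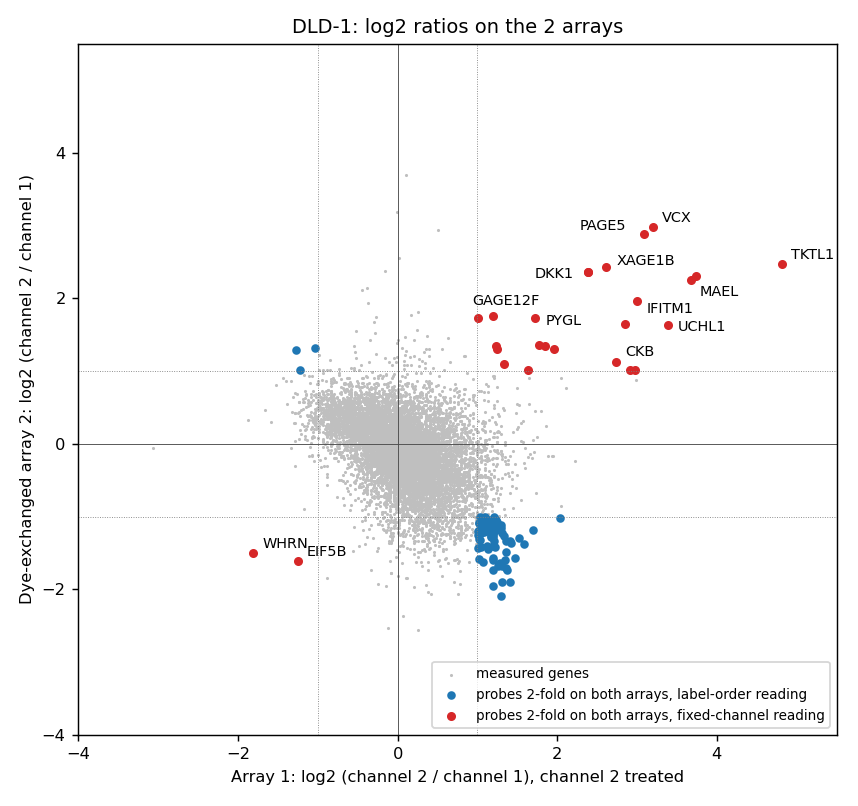
Log2 ratio of channel 2 over channel 1 on array 1 (x axis) and on the dye-exchanged array 2 (y axis) for every measured gene (grey) and for the probes at least 2-fold changed on both arrays under the fixed-channel reading (red) or the label-order reading (blue). The grey cloud slopes downward (r = -0.41 over probes), while the 24 raised red probes lie at the upper right, with TKTL1 at 4.81 and 2.47.

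Genes transcribed in germ cells led the fixed-channel reading. TKTL1, a transketolase-like protein abundant in testis, gave background-subtracted intensities of 187.3 in channel 1 and 13789.5 in channel 2 of array 1, and of 235.4 and 1697.5 on array 2. Channel 2 was the brighter on both arrays, by a wider margin on array 1. The log2 ratios were 4.81 and 2.47 (3.64 ± 1.66, 12.5-fold). Turning the sign of array 2 makes the mean 1.17 ± 5.15, so the array 1 value alone holds it above 0.

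VCX, a testis protein of the variably charged X-linked family, gave 707.5 and 9975.4 in channels 1 and 2 of array 1 and 1158.6 and 9295.9 on array 2. PAGE5, a cancer-testis antigen, gave 231.6 and 4847.0 on array 1 and 413.0 and 3674.5 on array 2. MAEL, which acts in the germ-cell small RNA pathway that silences transposons, gave -88.0 and 2109.7 on array 1 and 441.8 and 2367.2 on array 2. For each of these genes both channel 2 intensities lay above both channel 1 intensities. The 2 arrays gave close ratios for VCX (3.20 and 2.98, 3.09 ± 0.16, 8.52-fold) and PAGE5 (3.09 and 2.89, 2.99 ± 0.14, 7.96-fold) and less close ones for MAEL (3.67 and 2.26, 2.96 ± 0.99).

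XAGE1B, which the platform lists under the older symbol XAGE1D, gave 220.5 and 3427.4 in channels 1 and 2 of array 1 and 1407.8 and 7536.7 on array 2 (2.52 ± 0.13). GAGE12F, listed as GAGE7, gave 5585.9 and 16153.9, then 7643.2 and 16838.3 (1.48 ± 0.40). Both are cancer-testis antigens encoded on the X chromosome, and GAGE12F was above background in channel 1 on both arrays. TSPY1, a testis protein encoded on the Y chromosome, gave 520.3 and 3516.2, then 2629.8 and 5828.7 (1.64 ± 0.46). VCX, XAGE1, GAGE and TSPY are families of near-identical copies, so 1 probe may read several members and the symbol is uncertain.

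The mean of a gene differs between the readings by the size of its array 2 ratio, so genes with large ratios there moved furthest. WWP2, a ubiquitin ligase high on array 2 alone (0.10 and 3.70), went from 1.90 to -1.80. In the label-order reading VCX had a mean of 0.11 ± 4.37, PAGE5 of 0.10 ± 4.23, XAGE1B of 0.09 ± 3.56 and GAGE12F of -0.28 ± 2.09. Under that reading each was higher in treated cells on array 1 and lower on array 2. MAEL stood at 0.70 ± 4.19 and TSPY1 at 0.32 ± 2.31.

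UCHL1, a ubiquitin hydrolase abundant in neurons and often methylated in colorectal cancer, gave 78.7 and 4092.2 in channels 1 and 2 of array 1 and 351.2 and 1158.2 on array 2. The fixed-channel ratios were 3.39 and 1.63 (2.51 ± 1.25, 5.70-fold), and the label-order mean was 0.88 ± 3.55. Channel 1 was above background on 1 of the 2 arrays for UCHL1, as it was for TKTL1, PAGE5, MAEL and XAGE1B, and their folds thus include a channel 1 value within background. Among all 24 raised probes channel 1 was above background on both arrays for 9, on 1 array for 10 and on neither for 5.

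The last 5 probes are those that went from background to signal, the pattern the study set out to find. They made up 0.0236% of measured probes and included probes for IFITM1, DKK1, PYGL and MTERF1. With block medians at 0, 3 of the 5 still passed. IFITM1, an interferon-induced membrane protein, gave 162.9 and 3946.5 in channels 1 and 2 of array 1 and 36.5 and 525.2 on array 2 (log2 ratios 3.0 and 1.97). DKK1, a secreted inhibitor of Wnt signalling, gave 75.2 and 1969.4, then 65.0 and 840.9 (2.39 and 2.36). PYGL, the liver form of glycogen phosphorylase, gave 100.2 and 1259.5, then 158.7 and 731.9 (1.72 and 1.73). Channel 2 was well above channel 1 on both arrays for all of these genes, as the rule requires.

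Channel 1 stayed within background on both arrays at these probes. For their folds it was raised, where lower, to the lowest level counted as above background in that channel. The true folds may thus be smaller. By this estimate IFITM1 was 5.21-fold higher in the fixed-channel reading, DKK1 4.83-fold and PYGL 3.28-fold. MTERF1, a mitochondrial transcription terminator, was 1.97-fold higher (measured ratios 1.23 and 1.34). Their label-order means were 0.52 for IFITM1, 0.02 for DKK1, -0.01 for PYGL and -0.06 for MTERF1.

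**Figure D3:**
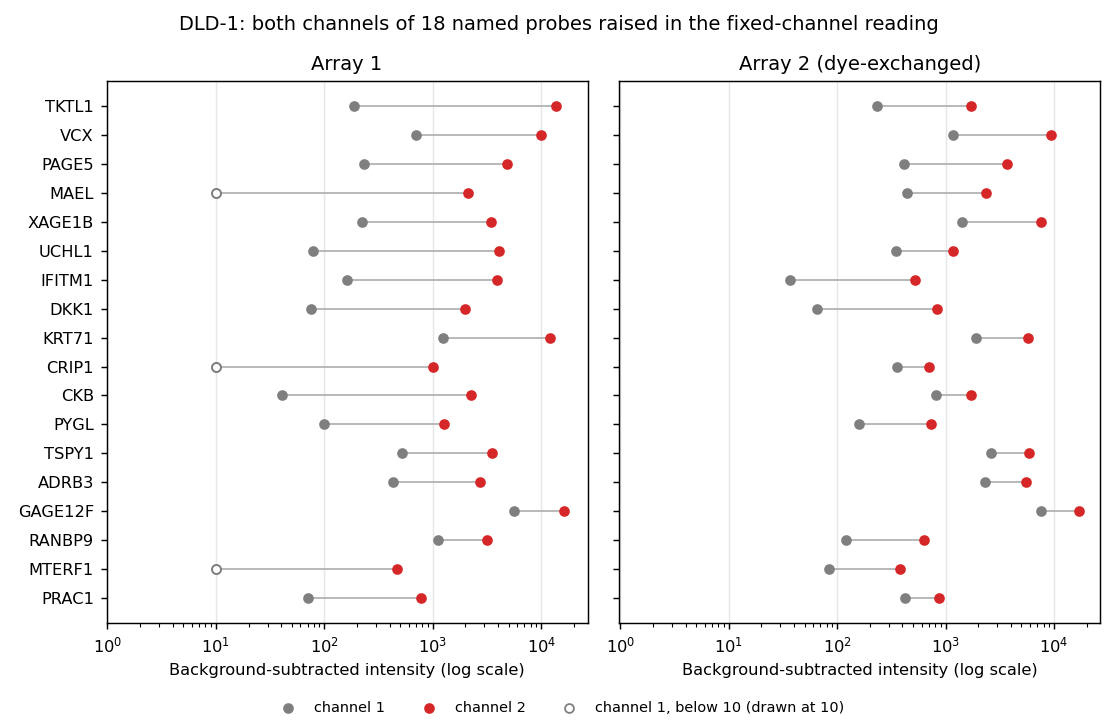
Background-subtracted intensity (log scale) of channel 1 (grey) and channel 2 (red) on array 1 (left) and the dye-exchanged array 2 (right), for 18 probes with a gene symbol raised in the fixed-channel reading, ordered by mean log2 ratio. Open circles are channel 1 values below 10, drawn at 10. Channel 2 is the brighter at every probe on both arrays, which follows from how the probes were chosen.

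The deposited arrays do not measure methylation, but the sequence before each gene shows how many sites for it exist. The windows printed here are the 250 bases before the start of 6 genes that led the fixed-channel reading, taken from RefSeq (GRCh38.p14) and written 5′ to 3′ on the gene's own strand, with each CG dinucleotide in capitals. They were chosen to show the range, from dense to empty. MAEL (chr1:166975332-166975581, plus strand, the richest window of 2 starts) holds 51 CG, UCHL1 (chr4:41256678-41256927, plus strand) 20, DKK1 (chr10:52314031-52314280, plus strand) 18, TKTL1 (chrX:154295545-154295794, plus strand, the richer of 2 starts) 13, PAGE5 (chrX:55220096-55220345, plus strand) 9 and IFITM1 (chr11:313790-314039, plus strand) 0.
MAEL: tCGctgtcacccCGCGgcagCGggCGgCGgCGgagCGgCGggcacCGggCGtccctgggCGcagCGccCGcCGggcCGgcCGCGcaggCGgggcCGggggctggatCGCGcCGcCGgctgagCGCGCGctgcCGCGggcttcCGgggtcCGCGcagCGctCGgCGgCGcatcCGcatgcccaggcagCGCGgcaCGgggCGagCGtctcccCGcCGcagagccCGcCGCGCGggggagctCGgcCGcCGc
UCHL1: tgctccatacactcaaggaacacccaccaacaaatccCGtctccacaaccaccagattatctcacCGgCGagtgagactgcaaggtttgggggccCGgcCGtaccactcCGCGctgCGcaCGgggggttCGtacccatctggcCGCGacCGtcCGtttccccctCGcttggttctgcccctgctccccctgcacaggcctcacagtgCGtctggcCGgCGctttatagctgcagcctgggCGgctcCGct
DKK1: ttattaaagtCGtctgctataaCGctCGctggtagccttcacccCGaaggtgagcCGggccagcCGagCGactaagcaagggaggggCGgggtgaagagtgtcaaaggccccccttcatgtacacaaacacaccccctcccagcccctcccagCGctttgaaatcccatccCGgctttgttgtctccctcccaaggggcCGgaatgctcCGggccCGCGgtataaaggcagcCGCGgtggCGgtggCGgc
TKTL1: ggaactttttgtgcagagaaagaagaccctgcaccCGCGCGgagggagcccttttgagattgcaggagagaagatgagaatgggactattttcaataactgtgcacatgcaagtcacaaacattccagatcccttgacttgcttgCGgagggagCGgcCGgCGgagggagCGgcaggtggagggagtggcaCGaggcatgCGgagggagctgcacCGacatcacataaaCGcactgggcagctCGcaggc
PAGE5: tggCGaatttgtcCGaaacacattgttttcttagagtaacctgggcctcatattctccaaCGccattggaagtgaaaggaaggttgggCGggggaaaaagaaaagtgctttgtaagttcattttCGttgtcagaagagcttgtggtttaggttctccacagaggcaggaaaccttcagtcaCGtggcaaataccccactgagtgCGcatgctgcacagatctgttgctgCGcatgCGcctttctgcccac
IFITM1: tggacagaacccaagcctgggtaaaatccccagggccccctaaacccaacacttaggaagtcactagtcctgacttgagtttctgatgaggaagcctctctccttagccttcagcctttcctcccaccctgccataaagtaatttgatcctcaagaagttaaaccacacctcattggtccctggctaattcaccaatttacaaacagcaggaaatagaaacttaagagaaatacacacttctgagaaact

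CG reads the same on both strands, so each match was counted once, and for genes with several starts the richest window was used. Of the named genes with a raised probe, 17 had a window in the fixed-channel set and 30 in the label-order set. The fixed-channel genes had a median of 14 CG, and 8 of 17 (47.1%) held at least 15. The label-order genes had a median of 24, and 22 of 30 (73.3%) held at least 15. Among the 8197 measured genes with a window the median was 22 and 72.2% held at least 15, and among all 27305 genes with a RefSeq window the share was 46.4%. MAEL, with 51, and RANBP9, with 45, were the most CG-rich of the fixed-channel genes, and IFITM1, with 0, and KRT71, with 1, the poorest. A count of CG is a description of the window and says nothing of its methylation in these cells.

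**Figure D4:**
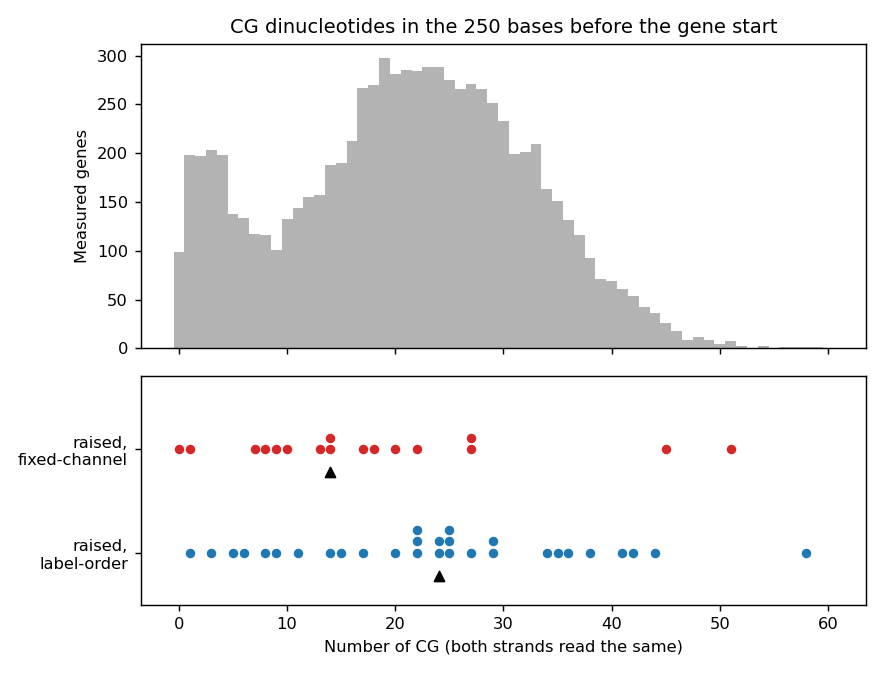
Number of CG dinucleotides in the 250 bases before the gene start for 8197 measured genes (grey histogram, top) and, below, for each named gene with a raised probe in the fixed-channel reading (red, n = 17) and the label-order reading (blue, n = 30). Triangles mark the medians, 14 for the fixed-channel genes and 24 for the label-order genes.

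The raised genes were also placed by chromosome, as a description. Of the 16 raised genes of the fixed-channel reading, 5 (31.2%) were on the X chromosome, namely TKTL1, VCX, PAGE5, XAGE1B and GAGE12F. Of the 31 in the label-order reading 2 (6.45%) were, and among all measured genes 421 of 10179 (4.14%) were. The 5 X-linked genes are the same 5 that were raised among the 29 measured cancer-testis genes, so both counts describe the same genes.

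Other raised genes of the fixed-channel reading had tissue-restricted or metabolic roles. CKB, the brain form of creatine kinase, gave 40.7 and 2239.9 in channels 1 and 2 of array 1 and 817.5 and 1713.5 on array 2 (2.74 and 1.13, 1.93 ± 1.14). CRIP1, a small LIM-domain protein first described in intestine, gave -102.8 and 1004.6, then 359.1 and 704.5 (2.97 and 1.02). ADRB3, the beta-3 adrenergic receptor of fat tissue, gave 426.8 and 2723.2, then 2328.8 and 5509.1 (1.77 and 1.36). In each case channel 2 was higher on both arrays, with the smaller ratio on array 2. The label-order means were 0.81 for CKB, 0.98 for CRIP1 and 0.20 for ADRB3. With block medians at 0, ADRB3 lost its 2-fold call (2.16 and 0.94), as did MTERF1 (0.69 and 1.73) and the probes for RANBP9 (0.68 and 1.7) and PRAC1 (1.44 and 0.72).

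KRT71, RANBP9, PRAC1 and EIF5B are named outside the rule for naming genes and were chosen after their values were seen. One KRT71 probe, for a keratin of the hair follicle, gave 2.85 and 1.65, but the mean over all probes of the gene was 1.03. A RANBP9 probe likewise passed while the gene's average (0.84 and 0.75) did not. PRAC1, a small protein known from prostate and colon, gave 1.33 and 1.1. Of the 24 raised probes 5 had no gene symbol. The brightest of them, described in the deposited annotation as humanin, a sequence with mitochondrial and nuclear copies, gave 8185.3 and 61552.6 on array 1 and 18934.4 and 52773.0 on array 2 (2.38 and 2.37).

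Genes that were high on 1 array fell short of the rule. MYL2, a light chain of heart-muscle myosin, gave 2.99 and 0.88, TPM2, a muscle tropomyosin, 2.05 and 0.90, and LGALS1, galectin-1, 2.11 and 0.77. These genes were higher in channel 2 on both arrays. OXA1L (0.51 and 2.94), WWP2 (0.10 and 3.70) and EHD1 (0.02 and 2.56) were far higher on array 2 than on array 1. OXA1L inserts proteins into the inner mitochondrial membrane and EHD1 acts in endocytic recycling. Their label-order means were -1.21, -1.80 and -1.27, each with the opposite sign on array 1.

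Few probes were lowered. WHRN is a scaffold protein of hair cells and photoreceptors. It gave 564.6 and 74.5 in channels 1 and 2 of array 1 and 610.6 and 42.5 on array 2 (-1.81 and -1.50). With channel 2 raised, where lower, to the lowest signal above background, WHRN was 2.41-fold lower in the fixed-channel reading. An EIF5B probe, for a translation initiation factor, gave 606.5 and 260.4, then 569.7 and 12.5 (-1.25 and -1.61, 2.27-fold by the same estimate). The average of the probes for EIF5B was -0.67 and -0.84. For the WHRN probe and this EIF5B probe the channel 2 signal stayed within background on both arrays, so the true folds may be smaller. RAPGEF5, an exchange factor for small GTPases, was lower on array 1 (-3.07) and near 0 on array 2 (-0.05).

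The label-order reading gave a different set with smaller and more even ratios, and by its sign rule could share none of the 24 probes. After probes of a gene were averaged, its highest gene was TTPAL, a protein related to the tocopherol transfer protein, with treated and untreated intensities of 4336.5 and 1227.0 on array 1 and 5673.5 and 1442.2 on array 2 (1.37 and 1.73, 1.55 ± 0.26). CDK10, a cyclin-dependent kinase, gave 4416.4 and 1352.6, then 4049.7 and 1052.9 (1.28 and 1.66). FLNA, an actin crosslinker, gave 6562.5 and 2323.2, then 4505.1 and 1271.5 (1.19 and 1.59). Treated intensities were above untreated ones on both arrays for these genes under this reading. In the fixed-channel reading the same genes were up on array 1 and down on array 2.

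ELF4, an ETS-family transcription factor (1.26 and 1.68), GLB1, lysosomal beta-galactosidase (1.33 and 1.26), and TBX4, a limb and lung transcription factor (1.04 and 1.42), followed. Probes for VPS35, a subunit of the retromer sorting complex (1.41 and 1.90), ZC3H15 (1.36 and 1.7) and SUFU, a repressor of Hedgehog signalling (1.21 and 1.33), also passed and are named after their values were seen. With block medians at 0, TTPAL (1.08 and 1.30), CDK10 (1.42 and 1.58), ZC3H15 (1.35 and 1.37) and SUFU (1.04 and 1.23) were still above 1 on both arrays. ELF4 (0.88 and 1.35), FLNA (0.74 and 1.27), TBX4 (0.73 and 1.04), VPS35 (0.87 and 1.51) and GLB1 (0.79 and 0.87) were not.

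From background to signal went 18 probes (0.0848%) in the label-order reading. Among them TCTN2, a protein of the ciliary transition zone, was 2.29-fold higher, and TRUB2, a mitochondrial pseudouridine synthase, 2.23-fold. MIOX, the enzyme that cleaves myo-inositol, PGS1, SECISBP2L, SLC4A1 and ATG9A were also among them, at 1.45-fold to 1.93-fold. For these folds untreated signal was raised in the same way, so the true folds may be smaller. With block medians at 0, each of these named genes was under 2-fold on at least 1 array (TCTN2 1.13 and 0.98, TRUB2 0.98 and 0.96), and 1 of the 18 probes, which has no symbol, stayed above 1 on both. RPUSD4, another pseudouridine synthase (-1.27 and -1.29), and KCTD16, an auxiliary subunit of GABA-B receptors (-1.04 and -1.32), were the named genes lowered 2-fold. Their treated signal was within background on both arrays. Raised in the same way, it left folds of 1.75 for RPUSD4 and 1.8 for KCTD16, and the true folds may be smaller. With block medians at 0, KCTD16 kept its 2-fold call (-1.23 and -1.22) and RPUSD4 lost it (-0.82 and -1.01).

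Gene lists were set beside all 10179 measured genes, whose median was -0.04 in the fixed-channel reading and 0.07 in the label-order reading. The lists and their members were chosen with earlier results of these data known, so their counts are descriptions and not tests of enrichment. Members named below that a list's call or its largest mean did not pick were chosen after their values were seen, as were CLIC3, NT5M and CCK at the 2-fold line. Of 29 measured cancer-testis genes 5 were raised 2-fold in the fixed-channel reading, against 0.157% of all genes, and the list median was 0.04. By label order 0 of the 29 were raised and the median was -0.12. Among the other members MAGEB2 was the highest, at 0.88 and 0.53 on the 2 arrays, and MAGEA8 the lowest, at -1.17 and 0.57. Of 22 germ-cell genes in a separate list 2 were raised, MAEL and TSPY1, in the fixed-channel reading (median 0.08), and 0 by label order (median 0.02). HORMAD1, a meiotic chromosome-axis protein, gave 0.12 and 1.08, and SYCP1, of the synaptonemal complex, 0.34 and 0.21.

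Of 51 measured genes known to be methylated in colorectal cancer, UCHL1 and DKK1 were raised in the fixed-channel reading, beside 0.157% of all genes. The list median was 0.04. By label order 0 were raised, beside 0.305% of all genes, and the median was 0.11. The next highest were KLF4, a transcription factor of differentiating gut epithelium (1.32 and 0.49), and the cell-cycle inhibitor CDKN2A (0.89 and 0.62), both positive on the 2 arrays and under 2-fold on at least 1. CDH13, an atypical cadherin, passed 2-fold on array 2 alone (0.06 and 1.32), and SOCS3, an inhibitor of cytokine signalling, on array 1 alone (1.30 and -0.14). CXCL12, a chemokine, was the lowest (-0.42 and -0.64).

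Of 27 measured Wnt pathway genes DKK1 alone was raised in the fixed-channel reading (median -0.05), and 0 by label order (median 0.08). Of all genes 0.157% and 0.305% were raised in these readings. Next was WNT6 at 0.72 and 0.33. The Wnt target AXIN2 gave 0.23 and -0.03 and MYC -0.04 and 0.35, each with opposite signs on the 2 arrays. LEF1, a transcription factor of the pathway, gave 0.19 and -1.29, which is a negative mean in the fixed-channel reading (-0.55) and a positive one in the label-order reading (0.74).

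Of 43 measured interferon-stimulated genes IFITM1 alone was raised in the fixed-channel reading (median 0.08), beside 0.157% of all genes. RIGI, the cytosolic RNA sensor, was the next highest at 0.56 and 1.30. IFIT1, which binds foreign RNA, gave 0.37 and 0.59, and IFI16, a DNA sensor, gave -0.29 and 1.67. By sign alone, 10 of the 43 were higher on both arrays and 1 lower, beside 15.8% and 16.9% of all genes. By label order 0 were raised 2-fold, beside 0.305% of all genes. By sign 21 were then higher and 11 lower, beside 39.2% and 28.1%.

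Of 39 genes of glycolysis, the pentose phosphate pathway and energy storage, TKTL1, CKB and PYGL were raised in the fixed-channel reading. Over all genes 0.157% were raised, and the list median was 0.04. TKTL1 is also counted with the cancer-testis genes. SLC2A1, the glucose transporter GLUT1, followed at 1.04 and 0.73. The median was 0.28 in the label-order reading, where 19 of 39 were higher on both arrays by sign (39.2% of all genes were), and 0.10 there with block medians at 0. TKT, the common transketolase, gave 0.18 and -1.06.

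No cell-cycle gene of 58 measured was raised or lowered 2-fold in either reading. By sign 15 were lower and 5 higher on both arrays in the fixed-channel reading (median -0.09), beside 16.9% and 15.8% of all genes. In the label-order reading 12 were lower and 26 higher (median 0.16), beside 28.1% and 39.2%. PCLAF, a partner of the replication clamp, was the lowest in the fixed-channel reading, at -0.76 and -0.73.

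The enzymes the drug acts on were under 2-fold in both readings. DNMT1, the maintenance DNA methyltransferase, gave 0.03 and -0.40, DNMT3A -0.28 and -0.06, and DNMT3B 0.37 and -0.28. None of the 19 measured genes of the DNA methylation machinery was changed 2-fold in either reading. TET1, which oxidises 5-methylcytosine, had the lowest mean of the list in the fixed-channel reading (0.11 and -0.99).

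The remaining lists held 0 genes changed 2-fold on both arrays in either reading. Genes of endoplasmic reticulum stress and heat shock had the highest fixed-channel median of these pathway lists, 0.17 over 32 genes, with 12 higher and 2 lower on both arrays by sign, beside 15.8% and 16.9% of all genes. HSPA5, the main chaperone of that compartment, gave 0.91 and 0.40, HSPH1, a heat shock protein, 0.58 and 0.62, and ATF6, a sensor of unfolded protein, 0.52 and 0.53. The label-order median of the list was 0.07, with 10 higher and 8 lower, beside 39.2% and 28.1%. Inhibitors of cyclin-dependent kinases and p53 targets had medians of 0.04 and 0.20 in the fixed-channel and label-order readings over 25 genes, with TIGAR at 1.52 and 0.54 and CDKN1A, the p21 inhibitor, at -1.02 and 0.35.

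Apoptosis genes had medians of -0.04 and 0.18 over 31 genes, with MCL1, an inhibitor of cell death, at 1.94 and -0.16. Intestinal differentiation genes had medians of -0.04 and 0.02 over 34 genes, with sucrase-isomaltase (SI) at 0.34 and 0.59 and KRT20 at -0.51 and -0.14. Imprinted genes had medians of -0.02 and 0.14 over 23 genes, with MEST at 1.09 and 0.17. Ribosomal protein genes, abundant in any cell, had medians of -0.01 and -0.09 over 70 genes. For the apoptosis, intestinal differentiation, imprinted and ribosomal protein lists, no median lay further than 0.2 from that of all genes.

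**Figure D5:**
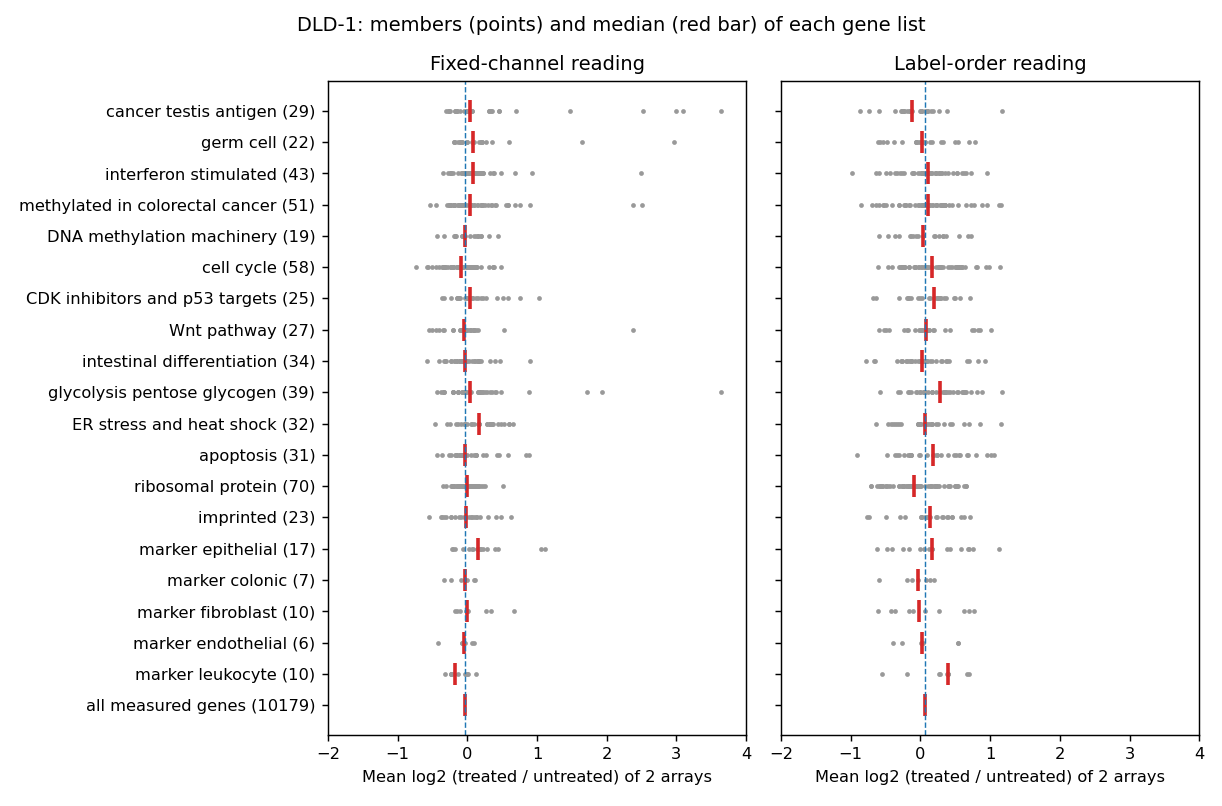
Mean log2 ratio of treated over untreated over the 2 DLD-1 arrays for each measured member of 19 gene lists (points), with the list median (red bar) and the median of all 10179 measured genes (dashed line), in the fixed-channel reading (left) and the label-order reading (right). A few members of the cancer-testis, germ-cell, interferon, methylated, Wnt and glycolysis lists lie above 1 on the left. So do KRT8 and TJP1 of the epithelial list and TIGAR of the list of CDK inhibitors and p53 targets. List medians on the left stay between -0.17 and 0.17.

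Markers of cell type were read against the same background rule. All 4 DLD-1 channels were above background for 16 of 18 epithelial markers on the array and 7 of 10 colonic markers, and also for 10 of 14 fibroblast, 6 of 9 endothelial and 10 of 12 leukocyte markers. The threshold thus does not separate cell types on this platform, and above background does not by itself show expression. VIM and LUM of the fibroblast list, CDH5 and TIE1 of the endothelial list and CD79A of the leukocyte list were above background in no channel. Summed epithelial marker intensity ran from 81500 to 151000 over the channels and summed leukocyte marker intensity from 13100 to 26400. Epithelial markers had medians of 0.15 and 0.16 in the 2 readings, with KRT8 at 1.80 and 0.45. Leukocyte markers had medians of -0.17 and 0.39, and what part other cells have in any result was not tested.

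HT-29 gave values for some of the same probes, and with 1 replicate per line no difference between the lines was tested. In the fixed-channel reading PAGE5 stood at 4.0 and 3.22 on the HT-29 arrays, MAEL at 1.61 and 2.70, XAGE1B at 2.12 and 1.27 and GAGE12F at 1.63 and 1.52, at least 2-fold higher there as in DLD-1. UCHL1 (1.30 and 0.87) and VCX (1.79 and 0.34) were positive on both HT-29 arrays and under 2-fold on 1. DKK1 gave 0.24 and -1.23 in HT-29, beside 2.39 and 2.36 in DLD-1. Of the 24 raised DLD-1 probes 16 were measured on both HT-29 arrays, where 12 had the DLD-1 sign on both and 5 were 2-fold on both. Of the 78 raised probes of the label-order reading 72 were measured in HT-29, where 20 had the same sign on both arrays and 2 were 2-fold on both. How often all measured probes share a sign or a 2-fold change on both HT-29 arrays was not counted under either reading. Differences between printed blocks made up 16.7% of ratio variance on HT-29 array 1 and 47.2% on array 2. Whether either set of counts exceeds such a background was therefore not tested.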

How the data were processed

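Each deposited scanner file gives, per the file headers, for every spot and both channels, a linear intensity with the local background and its SD, and a log2 ratio made by the authors, which was used as an alternative. Total RNA was amplified to amino allyl aRNA and coupled to dye, per the labels' protocols. Scanner and software: not given in the sources used here.

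Intensities were background-corrected with normexp (offset 50) and normalised with 1 loess curve per array in R 4.3.3 with limma 3.58.1, where controls and bad-marked spots had weight 0. Of 29640 non-control spots, 10 marked bad on a DLD-1 array were left out. A channel counted as above background where it exceeded local background by over 2 background SD, and a probe was measured where at least 1 channel did so on both arrays. Folds of probes whose dimmer channel was within background on both arrays used per-channel levels after Aquantile scaling. Several probes of a gene were averaged. The platform annotation named 14200 probes and the deposited descriptions 1351 more; 447 carried several symbols and 13642 none. The counting step was tested on simulated arrays with independent noise and no block pattern. That test checks the counting itself and not the counts in these data.

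Genes were named where they were among the 20 highest or 10 lowest in the fixed-channel reading, the 12 highest or 6 lowest in the label-order reading, rose from background, or led a list; the DNA methyltransferases were added. The members and lists were chosen with earlier results of these data known. Alternatives covered the reading, block centring, background, filters, thresholds and each array alone. Array number limits precision. Some items are not reported here.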

Additional observations from a re-analysis of the deposited data

Results flagged for a closer look

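Among the genes of the naming rule, 10 had both DLD-1 arrays on one side of 0 and both HT-29 arrays on the other, 7 in the fixed-channel reading and 3 in the label-order reading, and these differences between the lines were not tested. In the fixed-channel reading 2 of them were raised 2-fold on both DLD-1 arrays. CKB had a mean log2 ratio of 1.93 in DLD-1 (2.74 and 1.13) and of -0.39 in HT-29 (-0.27 and -0.51). TSPY1 had 1.64 in DLD-1 (1.96 and 1.31) and -0.31 in HT-29 (-0.02 and -0.60), where 1 value is near 0. KRT20, a keratin of differentiated gut epithelium, had -0.33 in DLD-1 (-0.51 and -0.14) and 1.7 in HT-29 (2.26 and 1.14). RPL3, a ribosomal protein, had 0.51 in DLD-1 and -0.24 in HT-29. WWP2 had 1.90 in DLD-1, nearly all of it from array 2 (0.10 and 3.70), and -0.27 in HT-29. MCM5, of the replicative helicase, had a DLD-1 mean of -0.58 beside 0.08 for HT-29, and the ribosomal protein gene RPL27 -0.35 and 0.39, each with a DLD-1 array near 0 (-0.01 and -0.02).

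In the label-order reading MIOX had 1.22 in DLD-1 (1.17 and 1.28) and -0.23 in HT-29 (-0.24 and -0.23). GADD45B, a stress-response protein, had 0.68 in DLD-1 and -0.48 in HT-29. LSAMP, a neural adhesion protein, had -1.27 in DLD-1 (-0.16 and -2.38) and 0.40 in HT-29.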

How the results depend on the processing

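The counts of probes raised, lowered and brought up from background were 24, 2 and 5 in the fixed-channel reading, and many alternatives moved them. Label order gave 78 raised and 18 from background, and turned the sign of 3 genes called 2-fold, GAGE12F (-0.28), MTERF1 (-0.06) and PYGL (-0.01). It moved 50 other named genes by more than the spread between arrays, among them WWP2 (1.90 to -1.80), OXA1L (1.72 to -1.21), EHD1 (1.29 to -1.27) and GCGR (1.59 to -1.60). Label order with block medians at 0 reversed GAGE12F (-0.45), MTERF1 (-0.52), PAGE5 (-0.07), PYGL (-0.05) and VCX (-0.02), and gave 25 raised. From background, 3 probes came with block medians at 0, with print-tip loess, with no background subtraction and with a threshold of 3 background SD, and 0 with the deposited log2 ratios, which exist for the 17849 measured probes with both channels above background and so give 0 by construction. Lowered probes numbered 1 with print-tip loess, no background subtraction or the deposited log2 ratios, and 0 at 3 background SD. Plain subtraction gave 64 raised, 17 lowered and 16 from background. Requiring both channels above background left 9, 0 and 0, the last again by construction, and no filter gave 65 raised and 6 lowered. The 1.5-fold line gave 109, 21 and 13, and the 3-fold line 12, 0 and 3. With 1 array alone, 562 to 625 probes were raised, 353 to 1069 lowered and 230 to 257 came from background, so the requirement of both arrays sets the main counts. Beyond the settings whose construction shows it, the cause was not tested. The raised count was 19 to 26 under block centring, print-tip loess, median centring, an offset of 10, no background subtraction and 3 background SD. These settings shared 18 to 24 of the 24 probes. The deposited ratios gave 20 raised among their 17849 probes, where the main processing gave 9, and shared 7 of those 9. No paired analysis was possible because the labels give the arrays no replicate numbers and each ratio is already within 1 array. Signal near background limits the folds of genes whose untreated channel was not above it.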
